A study of Mus musculus with 88 samples.

Results

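Complex I, NADH:ubiquinone oxidoreductase, is the first enzyme of the mitochondrial respiratory chain. The 40 genes described here are those with a symbol of Nduf followed by a, b, c, s or v and a digit, and a mean of at least 1 CPM (reads of a gene scaled to a common library size). They are 40 of the 14086 genes with that mean level, out of 14451 in the table, and no matching symbol fell below it. The rule used no comparison between groups. mRNA-seq was done on the frontal cortex of 88 mice aged 6.5 months, 1 library per mouse. APP/E4/Trem2ko (n = 16), APP/E3/Trem2ko (n = 14), APP/E4 (n = 14) and APP/E3 (n = 14) mice carried the APP/PS1dE9 transgene, which encodes human APP with the Swedish mutation and presenilin 1 without its exon 9. Their littermates without the transgene were E4/Trem2ko (n = 8), E3/Trem2ko (n = 8), E4 (n = 6) and E3 (n = 8). All 88 mice had mouse Apoe replaced by human APOE3 or APOE4, so no mouse expressed the mouse protein, and Trem2ko mice lacked Trem2 in every cell. Females and males were equal in number in each genotype, except E4 with 4 females and 2 males.

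Complex I oxidises NADH in its matrix arm, passes the electrons along iron-sulfur clusters to ubiquinone and pumps protons through its membrane arm. The N module at the tip of the matrix arm binds NADH, the Q module at its base reduces ubiquinone, and the proximal and distal parts of the membrane arm hold the proton channels. The catalytic core is made from nuclear genes in the matrix arm and mitochondrial ND genes in the membrane arm, and the other nuclear subunits are accessory. Neurons depend on this chain for most of their ATP. The module of each subunit is taken from the human complex.

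Depth was 41.3 to 95.5 M reads per library, with a median of 49.8 M. Trem2 was at most 4.65 CPM in Trem2ko mice, against at least 7.18 CPM in mice with Trem2, and App in every APP mouse was above the highest level in non-APP mice, 2677 CPM. Cortical projection neuron markers summed to at least 1075 CPM in every library. Some libraries stood apart: 22 of 88 had summed striatal markers of at least 500 CPM, 9 had Ttr, a choroid plexus transcript, of at least 100 CPM, and 4 had Alb of at least 50 CPM. Keratin transcripts (Krt13, Krt4 and Krt6a) reached 1 CPM in 31 libraries, all of APOE4 mice. APP/E4/Trem2ko mice E4127, which had the deepest library, and E4132 stood apart together: they were the 2 highest of their group for 14 members and the 2 lowest for 5. Ndufb4 was at 6.40 and 5.57 CPM in this pair and at most 1.99 CPM in the other 14 mice of the group, and Ndufa6 at 6.67 and 7.35 CPM and at least 14.9 CPM. The calls of APP/E4/Trem2ko vs APP/E3/Trem2ko, APP/E4/Trem2ko vs APP/E4 and APOE by Trem2 in APP mice are given with and without the pair. This choice was made after the data were seen. Other results for the group, such as the sums, module counts and transgene comparison, include the pair. The methods mention a sequencing batch that the labels do not give, so batch and genotype cannot be told apart.

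The summed level of the 40 genes was lowest in APP/E4 mice. In mice with the transgene it had a lowest, median and highest value of 1868, 2449 and 2862 CPM in APP/E4/Trem2ko mice, against 2258, 2468 and 2928 CPM in APP/E3/Trem2ko mice. It was 1706, 2129 and 2546 CPM in APP/E4 mice, against 2214, 2459 and 2974 CPM in APP/E3 mice. Means were 2085 ± 238 CPM in APP/E4 and 2512 ± 204 CPM in APP/E3 mice (SD, n = 14 each). Without the transgene the means were 2240 ± 251 CPM in E4/Trem2ko and 2457 ± 284 CPM in E3/Trem2ko mice (SD, n = 8 each). They were 2234 ± 344 CPM in E4 (SD, n = 6) and 2562 ± 251 CPM in E3 mice (SD, n = 8). Every pair of groups overlapped, and the sums carry no test. In bulk tissue, fewer cells of a type and less RNA per cell cannot be told apart.

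**Figure D1:**
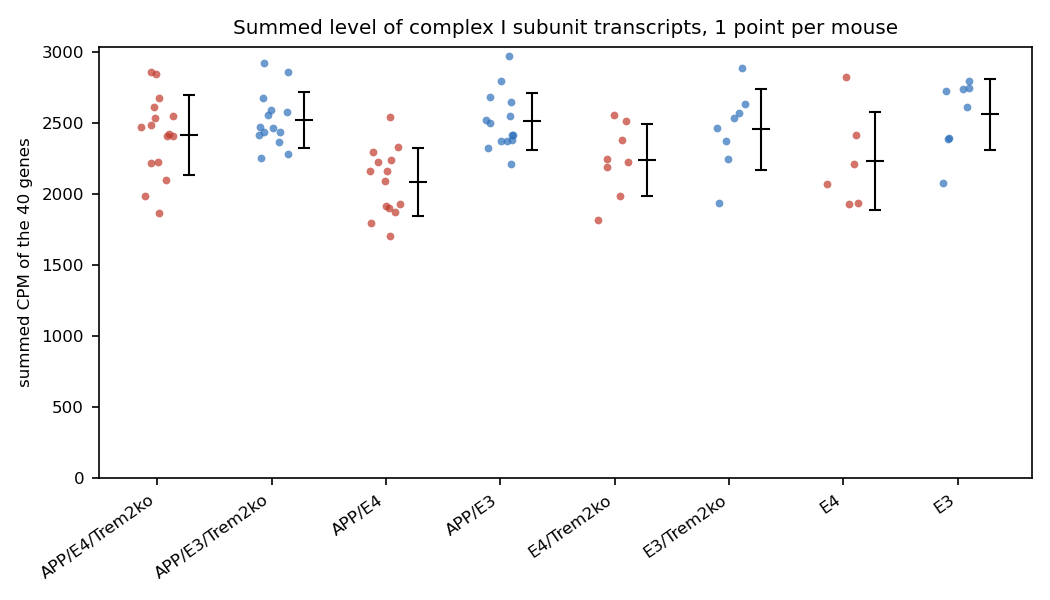
Summed CPM of the 40 genes (y axis, from 0) in each mouse by genotype (x axis), APOE4 in red and APOE3 in blue, with the mean and SD in black. APP/E4 mice lie between 1706 and 2546 CPM, against 2214 to 2974 CPM for APP/E3 mice.

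The APOE comparison in APP mice asked whether the human isoform changes these transcripts beside amyloid. In APP/E4 vs APP/E3 mice, 30 of the 40 genes were lower, 0 were higher and 10 did not pass the test (limma, Benjamini-Hochberg adjusted p under 0.05 over all genes). Of all 14086 genes, 22.7% were called lower. The 40 genes had a median log2 fold change of -0.33, against -0.04 over all genes, and ranged from -0.69 to 0.15. With another scaling (TMM) 26 members were called lower, while the calls over all genes were 2480 lower and 2234 higher, compared with 3199 lower and 1530 higher without it.

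The 10 genes with the smallest p were accessory subunits, with 1 core subunit and Ndufa4 among them. Ndufb6, an accessory subunit of the distal membrane arm (chr4:40270591-40279421, mm10), had 28.6, 37.3 and 59.0 CPM in APP/E4 mice as lowest, median and highest, against 43.2, 52.4 and 58.5 CPM in APP/E3 mice. Of the 14 APP/E4 mice, 13 were below every APP/E3 mouse and 1 was above them all. The log2 fold change was -0.51 ± 0.07 (SE, adjusted p = 1.28e-07). Ndufs7, the core Q module subunit that carries the last iron-sulfur cluster before ubiquinone (chr10:80249121-80256794), had 46.2, 59.3 and 79.4 CPM in APP/E4 mice, against 73.8, 82.1 and 106 CPM in APP/E3 mice. Its log2 fold change was -0.56 ± 0.09 (SE, adjusted p = 1.03e-06). The ranges met only between 73.8 and 79.4 CPM.

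In the N module, Ndufv3, the accessory subunit of the NADH-binding tip (chr17:31520115-31531331), had 23.9, 28.6 and 41.1 CPM in APP/E4 mice, against 35.7, 40.9 and 50.2 CPM in APP/E3 mice. It fell by 0.50 on the log2 scale. Ndufa7, an accessory subunit near the N and Q modules (chr17:33824572-33838317), had 14.4, 22.2 and 40.9 CPM in APP/E4 mice, against 26.8, 35.6 and 45.3 CPM in APP/E3 mice, and fell by 0.67. The medians of both were below the lowest APP/E3 mouse. Adjusted p was 1.16e-06 for Ndufv3 and 3.03e-06 for Ndufa7.

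Several membrane arm subunits also fell. Ndufa1, an X-linked accessory subunit (chrX:37187588-37191163), had the largest fall of the 40, with 15.5, 24.8 and 44.1 CPM in APP/E4 mice, against 32.7, 38.2 and 58.3 CPM in APP/E3 mice (log2 fold change -0.69 ± 0.13, SE, adjusted p = 1.64e-05). Ndufc1, a proximal membrane arm subunit (chr3:51404677-51408988), averaged 15.3 ± 3.05 CPM in APP/E4 and 22.3 ± 2.16 CPM in APP/E3 mice (SD, n = 14 each), and fell by 0.55 on the log2 scale. Ndufc2, its neighbour in the complex, fell by 0.43, Ndufb2 by 0.45 and Ndufa13, also known as GRIM-19, by 0.37. Each of these 5 genes had its APP/E4 median below the lowest APP/E3 mouse, as the group values of Ndufc2 (47.1 CPM, against 55.8 CPM), Ndufb2 (33.0 CPM, against 36.9 CPM) and Ndufa13 (83.9 CPM, against 90.9 CPM) show.

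Ndufa4 matches the symbol rule but is now placed in complex IV, and Ndufa4l2 is its paralogue. Ndufa4 had 59.2, 83.6 and 132 CPM in APP/E4 mice, against 111, 121 and 145 CPM in APP/E3 mice, and fell by 0.56 on the log2 scale (adjusted p = 2.63e-05). Ndufa4l2 averaged 1.53 ± 0.668 CPM in APP/E4 and 1.82 ± 0.299 CPM in APP/E3 mice (SD, n = 14 each) and did not pass the test (adjusted p = 0.111).

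The core subunits were split. Of the 7 nuclear core genes, 4 fell, Ndufs7 among them, and the other 3 did not pass the test, with log2 fold changes for the 7 from -0.56 to -0.03. Ndufv1, which binds NADH and its flavin, had 154, 179 and 199 CPM in APP/E4 mice, against 162, 182 and 205 CPM in APP/E3 mice. Its log2 fold change of -0.03 ± 0.04 (SE) did not pass the test (adjusted p = 0.640). Ndufs1, the iron-sulfur subunit next to it, had 104, 117 and 129 CPM in APP/E4 mice, against 101, 119 and 137 CPM in APP/E3 mice (log2 fold change -0.03 ± 0.05, SE, adjusted p = 0.721). The ranges of Ndufv1 and Ndufs1 nearly coincided between the genotypes.

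By module, 6 of 10 N module genes fell, with a median log2 fold change of -0.25. In the Q module 5 of 5 fell, with a median of -0.29. In the proximal membrane arm 9 of 10 fell (median -0.42), and Ndufa9 was at -0.01 ± 0.04 (SE). In the distal membrane arm 7 of 10 fell (median -0.28), while Ndufb5, Ndufb10 and Ndufb4 did not pass the test. Of the 5 genes outside these modules, Ndufa4, Ndufb4b and Ndufb4c fell. No test of the difference between modules was made.

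**Figure D2:**
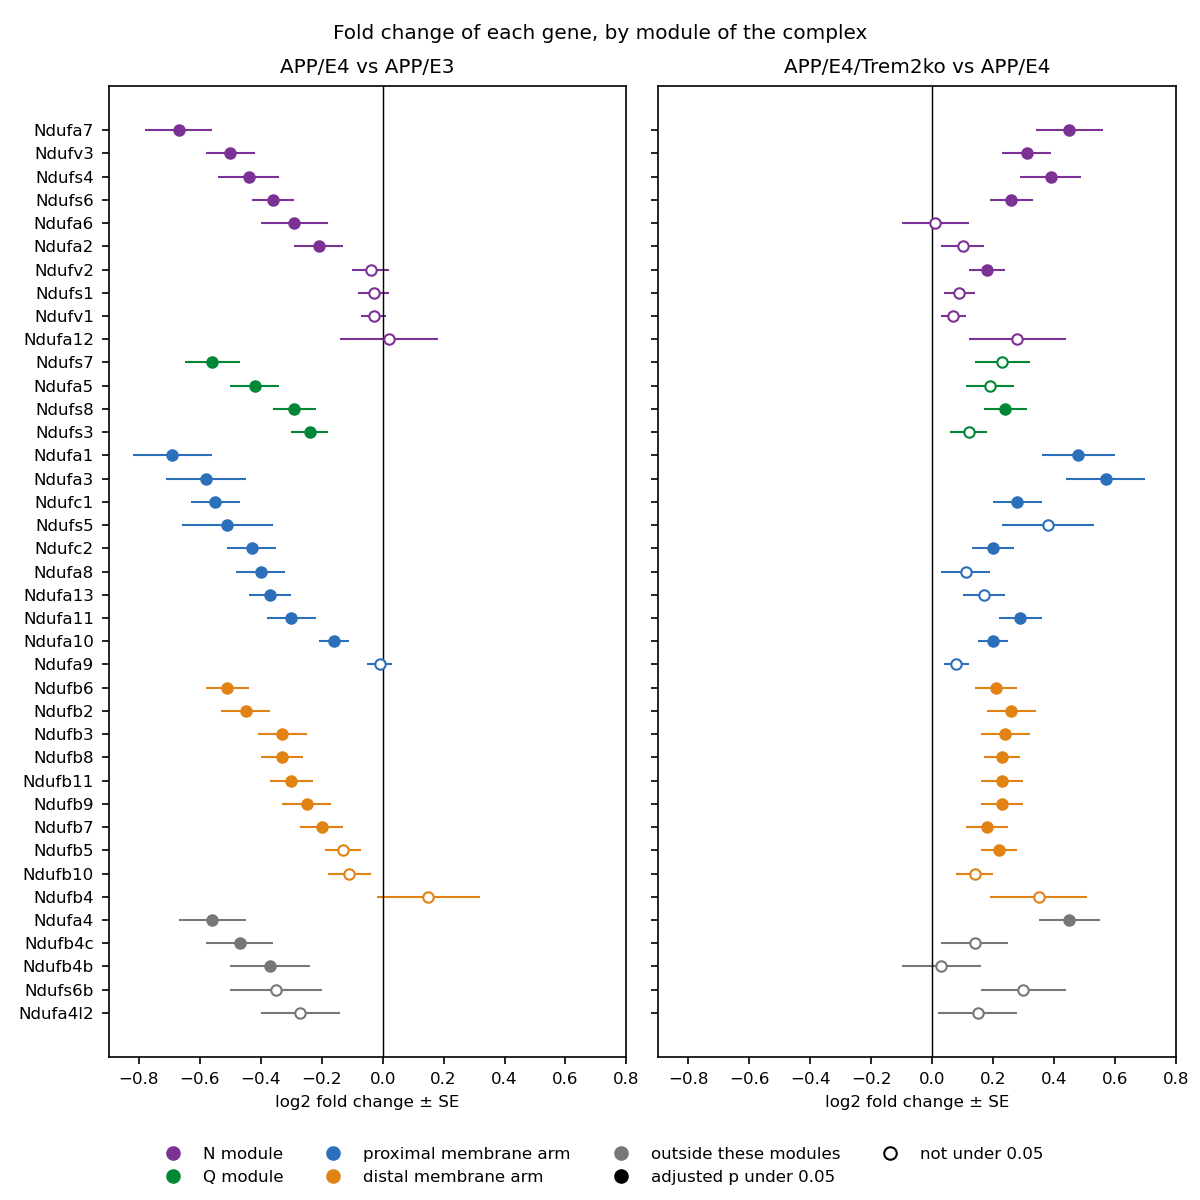
Log2 fold change with SE (x axis) of 39 of the 40 genes (rows, grouped and coloured by module), for APP/E4 vs APP/E3 at left and APP/E4/Trem2ko vs APP/E4 at right, with filled points for adjusted p under 0.05. On the left 29 points are filled, all below 0, and on the right 21, all above 0. The panels share the APP/E4 mice.

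Properties of the libraries moved with this comparison. The 39 members with an annotated length had a median exonic length of 1381 bases, against 4532 bases over all genes tested, and 5.79% of all genes were shorter than that. The slope of a library's log2 levels on log2 exonic length, over all genes, had a median of 0.059 in APP/E4 mice, against -0.045 in APP/E3 mice, so longer genes took relatively more reads in APP/E4 libraries. Rn45s, the precursor of ribosomal RNA, had a median of 6289 CPM in APP/E4 mice, against 1276 CPM in APP/E3 mice. Keratin transcripts reached 1 CPM in 10 of 14 APP/E4 libraries, against 0 of 14 APP/E3 libraries. The comparison was therefore fitted again with these properties in the model or with libraries left out. Each library's length slope was added as a covariate, a choice made after the data were seen. Then 1 member was lower (Ndufb6, 3.43% of all genes) and 1 higher (Ndufa9), with a median of -0.01, against -0.04 over all genes. After a loess correction for exonic length and GC content, 12 of 39 members were lower (13.8% of all genes). Ndufa9, Ndufb10 and Ndufv1 were higher (3 members, 11.8% of all genes), and the median was -0.08, against -0.00 over all genes. With Rn45s as a covariate 0 members were lower (0.582% of all genes) and the median was -0.13, against -0.01 over all genes. Without the libraries with keratin reads 11 were lower (11.4% of all genes), with a median of -0.25, against -0.05 over all genes.

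**Figure D3:**
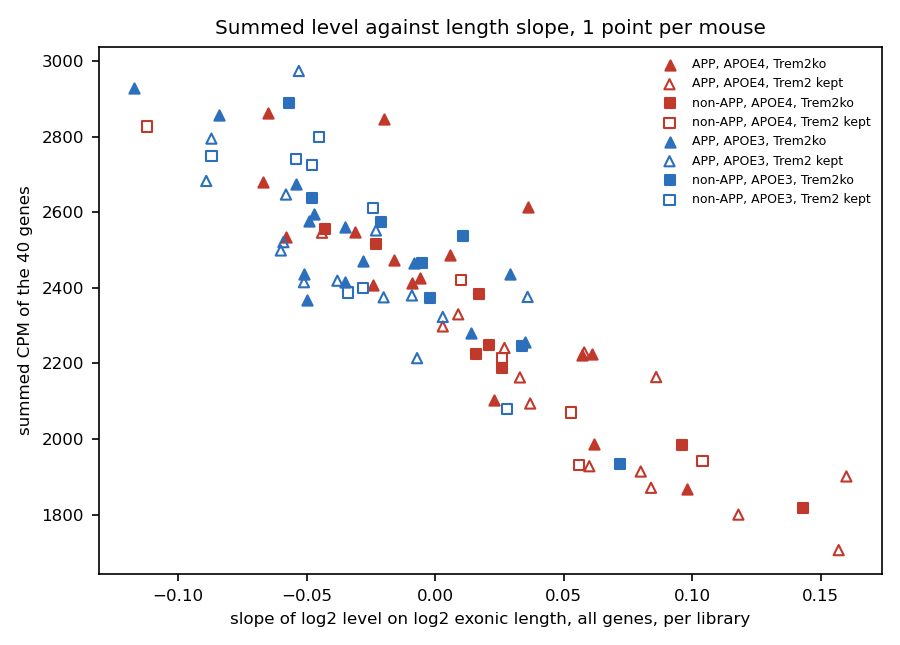
Summed CPM of the 40 genes (y axis) against the slope of log2 level on log2 exonic length over all genes (x axis), 1 point per mouse, APOE4 in red, APOE3 in blue, triangles for APP mice and filled symbols for Trem2ko. The 5 mice with a slope above 0.1 had sums of 1706 to 1941 CPM, and the 18 mice with a slope below -0.05 had sums of 2415 to 2974 CPM.

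**Figure D4:**
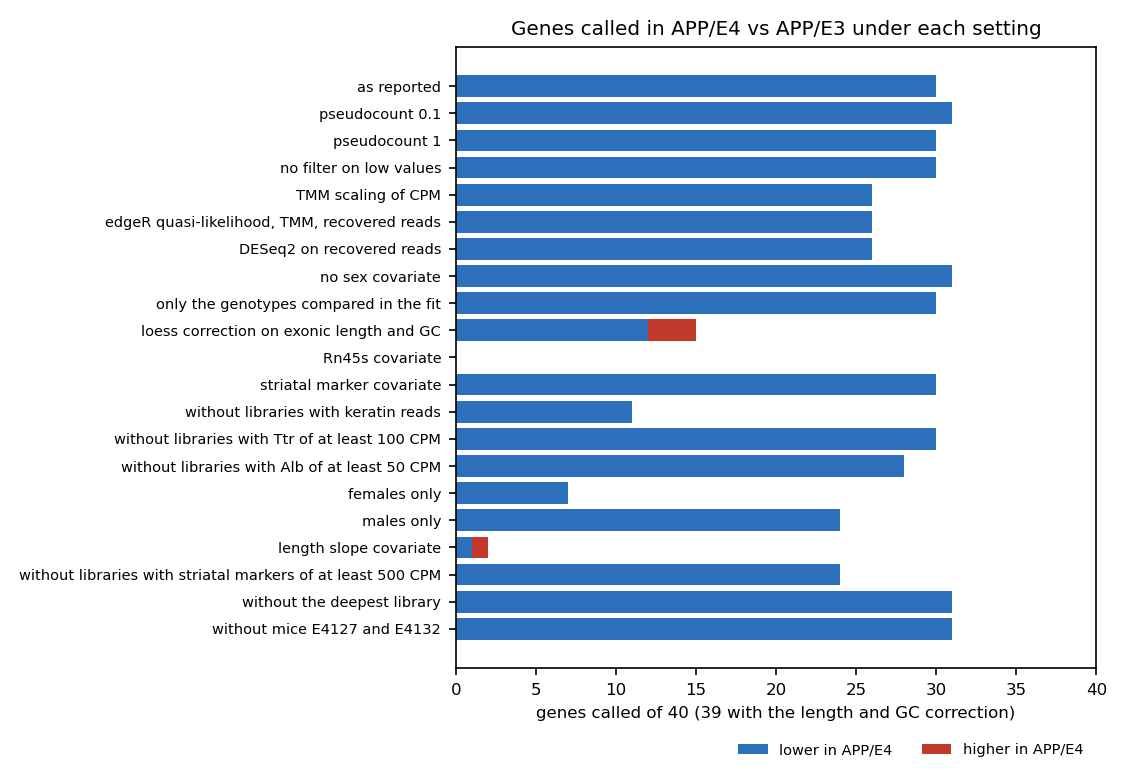
Number of members called (x axis) in APP/E4 vs APP/E3 under each setting (rows), blue for lower and red for higher in APP/E4. The count was 30 as reported and 0 with the Rn45s covariate.

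Within sexes, 7 members were lower in APP/E4 females (4.20% of all genes) and 24 in APP/E4 males (16.0% of all genes), with medians of -0.33 and -0.30. The difference between sexes was not tested.

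The other APOE comparisons gave fewer calls in the same direction. In E4 vs E3 mice 9 members were lower (6.01% of all genes) and 0 higher, with a median log2 fold change of -0.26, against -0.04 over all genes. Over all genes 846 were lower and 242 higher, compared with 536 lower and 387 higher with TMM scaling. Ndufb6 averaged 38.2 ± 7.53 CPM in E4 (SD, n = 6) and 54.9 ± 4.88 CPM in E3 mice (SD, n = 8), and fell by 0.53 on the log2 scale (adjusted p = 9.57e-04). Of the 6 E4 mice, 5 were below every E3 mouse. Ndufa7 had 18.8, 21.0 and 40.7 CPM in E4 mice, against 33.8, 37.2 and 50.3 CPM in E3 mice (log2 fold change -0.66 ± 0.16, SE, adjusted p = 0.00696). The count was 17 without E4 mouse E3357 and 2 without E4 mouse E3473. It was 0 with the Rn45s covariate, without the libraries with keratin reads, or without those with high striatal markers. Leaving out keratin libraries kept 2 of 6 E4 mice. Shares of all genes are not given for these fits.

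In APP/E4/Trem2ko vs APP/E3/Trem2ko mice 3 members were lower (3.02% of all genes), namely Ndufs7, Ndufb4c and Ndufb6, and the median was -0.09. Ndufs7 had 38.9, 69.1 and 101 CPM in APP/E4/Trem2ko mice, against 76.4, 87.4 and 106 CPM in APP/E3/Trem2ko mice, and fell by 0.35 (adjusted p = 0.0103). Mice E4127 and E4132 were the 2 lowest of the group for Ndufs7, at 45.6 and 38.9 CPM, and for Ndufb4c, at 4.27 and 2.91 CPM. Without them 2 members were lower (3.57% of all genes), Ndufs7 with a log2 fold change of -0.26 ± 0.08 (SE, adjusted p = 0.0475) and Ndufb6, while Ndufb4c did not pass the test (-0.27 ± 0.10, SE, adjusted p = 0.0788). This comparison lost all calls when only the compared genotypes were fitted. In the length slope fit it had 4 members higher and 1 lower, with a median of 0.04, against -0.01 over all genes. The share of all genes called is not given for that fit. The count ran from 2 without APP/E3/Trem2ko mouse D3939 to 7 without APP/E4/Trem2ko mouse E3738. In E4/Trem2ko vs E3/Trem2ko mice 1 member was lower (4.68% of all genes). It was Ndufs7, with 51.1, 68.9 and 84.4 CPM in E4/Trem2ko mice, against 58.2, 88.1 and 105 CPM in E3/Trem2ko mice (log2 fold change -0.37 ± 0.12, SE, adjusted p = 0.0480). That call was absent with TMM scaling, edgeR and DESeq2, with the Rn45s covariate, in each sex, and without libraries with high Alb or high striatal markers. Leaving out keratin libraries kept 1 of 8 E4/Trem2ko mice, so only the median is given, -0.18, against -0.06 over all genes. With only the compared genotypes fitted the 1 member called was Ndufa7 in place of Ndufs7, and with the length slope covariate it was Ndufc2. Without mice E4127 and E4132, which are not in this comparison but enter the shared spread, Ndufs7, Ndufa7 and Ndufs4 were lower. The share of all genes is not given for the fit without this pair. Of all genes called 49.4% were lower with TMM scaling, compared with 75.3% without it. The count was 0 without E3/Trem2ko mouse D3834 and 3 without E3/Trem2ko mouse D3833. The share of members called in this comparison, 2.50%, was below that of all genes.

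The Trem2 comparisons asked what its deletion changes on each APOE background. In APP/E4/Trem2ko vs APP/E4 mice 22 of the 40 genes were higher (11.3% of all genes) and 0 lower, with a median log2 fold change of 0.22, against 0.04 over all genes, and all 40 estimates were above 0. The APP/E4 mice are the same as in the APOE comparison, so both sets of calls rest on them. Over all genes the calls were 1588 higher and 356 lower, and 804 higher and 649 lower with TMM scaling, under which 14 members were higher.

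Ndufa3, a membrane arm subunit, averaged 41.0 ± 12.9 CPM in APP/E4/Trem2ko (SD, n = 16) and 27.6 ± 9.81 CPM in APP/E4 mice (SD, n = 14), with a log2 fold change of 0.57 ± 0.13 (SE, adjusted p = 0.00287). Ndufa4 had 80.2, 113 and 232 CPM in APP/E4/Trem2ko mice, against 59.2, 83.6 and 132 CPM in APP/E4 mice (0.45 ± 0.10, SE, adjusted p = 0.00348). Ndufs4, an accessory N module subunit whose loss gives a Leigh-like disease in mice, had 26.2, 34.0 and 77.8 CPM in APP/E4/Trem2ko mice, against 20.9, 27.1 and 41.5 CPM in APP/E4 mice (0.39 ± 0.10, SE, adjusted p = 0.00615). The groups overlapped for all 3 genes. The 2 highest APP/E4/Trem2ko mice were E4127 and E4132 each time, with 68.4 and 60.8 CPM for Ndufa3 (at most 51.5 CPM in the other 14), 232 and 203 CPM for Ndufa4 (at most 142 CPM) and 77.8 and 70.2 CPM for Ndufs4 (at most 45.1 CPM). Without this pair Ndufs4 averaged 34.0 ± 5.47 CPM in APP/E4/Trem2ko and 28.6 ± 5.32 CPM in APP/E4 mice (SD, n = 14 each), and its log2 fold change was 0.25 ± 0.08 (SE, adjusted p = 0.0393). That of Ndufa3 was then 0.47 ± 0.13 and that of Ndufa4 0.32 ± 0.09 (SE), with adjusted p of 0.0166 and 0.0219. In all, 17 members were higher without the pair (6.33% of all genes), 15 of them among the 22, and the median was 0.19. With all mice, Ndufa7 rose by 0.45 and Ndufv3 by 0.31 on the log2 scale. By module, 8 of 10 distal, 6 of 10 proximal, 5 of 10 N module and 2 of 5 Q module genes rose.

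These calls numbered 0 when only the compared genotypes were fitted (0.412% of all genes higher), 0 without the libraries with Ttr of at least 100 CPM (0.980%), 0 with the Rn45s covariate (0.852%), 0 with the length slope covariate (0.284%) and 6 after the length and GC correction (3.45%). The median stayed above 0 in each of these fits, at 0.06 to 0.22. With the length slope covariate it was 0.06, against 0.04 over all genes, so the members were near the rest. It was 0.08, against -0.00 over all genes, after the length and GC correction, and 0.16, against 0.03, with the Rn45s covariate. Without libraries high in Ttr it was 0.19, against 0.03, and with only the compared genotypes 0.22, against 0.04. The length slope had a median of -0.008 in APP/E4/Trem2ko mice, against 0.059 in APP/E4 mice, and Rn45s had a median of 4104 CPM, against 6289 CPM. Without APP/E4 mouse E3203 the count was 14, with no share of all genes given for that fit. In females alone 0 members were higher (0.0994% of all genes) and in males alone 1, Ndufc1 (0.731%).

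The other Trem2 comparisons called no member by limma, edgeR or DESeq2. In APP/E3/Trem2ko vs APP/E3 mice the median was 0.01 with 0.319% of all genes called, and 0 members had an unadjusted p under 0.05, against 5.56% of all genes. In E3/Trem2ko vs E3 mice the median was -0.07 with 2.92% of all genes called, and 4 of 40 members had such a p, against 21.3% of all genes. In E4/Trem2ko vs E4 mice the median was -0.01 with 0.0994% of all genes called, and 0 members had such a p, against 6.47% of all genes.

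**Figure D5:**
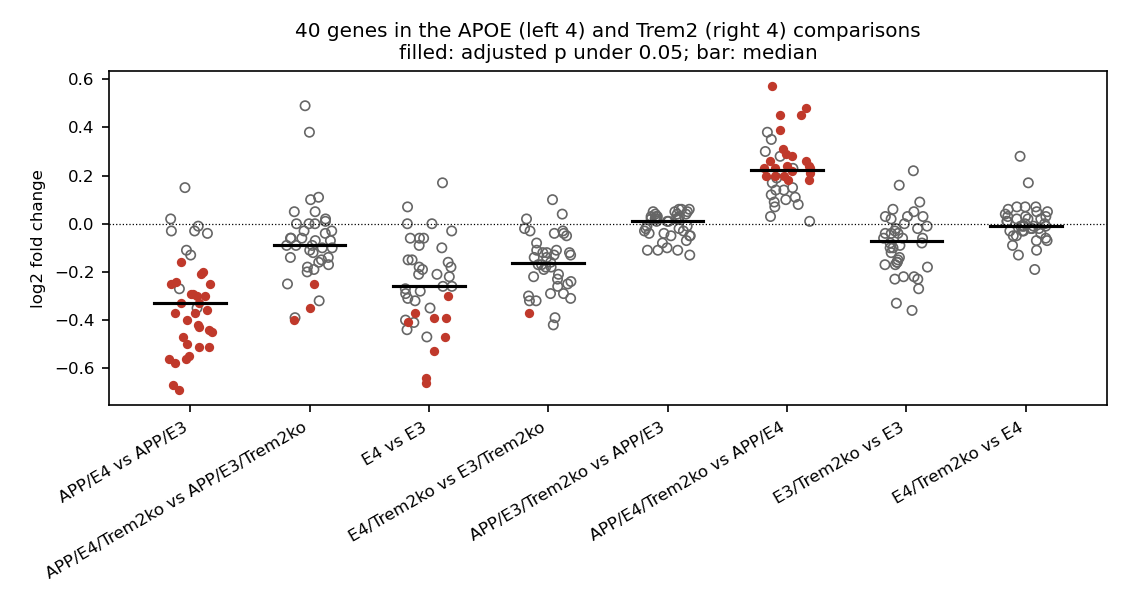
Log2 fold change (y axis) of the 40 genes in the APOE and Trem2 comparisons (x axis), red filled points for adjusted p under 0.05 and a bar at the median. The median is -0.33 for APP/E4 vs APP/E3. It is 0.22 for APP/E4/Trem2ko vs APP/E4, and both use the APP/E4 mice.

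Whether the APOE effect depended on Trem2 was tested directly. In APP mice the difference of the APOE effects had a median of 0.22 and called 0 members by limma and edgeR and 1 by DESeq2 (0.369% of all genes called by limma). At an unadjusted p under 0.05 there were 20 of 40 members, against 15.5% of all genes. Without mice E4127 and E4132 0 members were called (0.248% of all genes) and the median was 0.21. The smallest adjusted p was 0.0641, for Ndufa3. Without APP/E4 mouse E3327 the count was 6, with no share of all genes given for that fit. In non-APP mice 0 members were called (0.0142% of all genes) and 0 had an unadjusted p under 0.05, against 6.77% of all genes. For APOE by APP, 0 members were called with Trem2 (0% of all genes) or in Trem2ko mice (0% of all genes), with 0 and 1 at an unadjusted p under 0.05, against 856 and 1415 of the 14086 genes. edgeR and DESeq2 also called 0 in these 3 contrasts.

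The transgene and sex called no member by limma, edgeR or DESeq2. For the transgene, APP/E3 vs E3 had a median log2 fold change of -0.04 (0.0213% of all genes called) and APP/E4 vs E4 one of -0.10 (0.0142%). The medians were 0.05 in APP/E3/Trem2ko vs E3/Trem2ko (0.149%) and 0.12 in APP/E4/Trem2ko vs E4/Trem2ko (0.0781%). At an unadjusted p under 0.05 there were 0, 1, 0 and 10 of 40 members in this order, against 5.99%, 9.29%, 16.7% and 18.5% of all genes. The last of these comparisons includes mice E4127 and E4132. Females differed from males by a median of -0.01 (0.135% of all genes called), with 0 members at an unadjusted p under 0.05, against 5.51% of all genes.

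The members varied together between mice of 1 genotype. After the genotype means were removed, the first component of the scaled log2 levels held 59.9% of the variance over 88 mice, all 40 members had the same sign on it, and the median correlation between pairs was 0.61. These mice share the properties of their libraries given above, so the value is a description. Ndufb11 had the highest mean correlation with the other members, at 0.70, and Ndufb4b (0.26) and Ndufs1 (0.27) the lowest.

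Levels per length ran from 0.681 to 104 CPM per kilobase of exons, with a median of 37.6 over 39 genes. Ndufb9 was highest and Ndufb4, a distal membrane arm subunit, was lowest. Ndufb4 had a mean of 1.31 CPM, while the entries Ndufb4b and Ndufb4c had 6.24 and 7.95 CPM. Ndufb4c (chr15:73809507-73809896) is annotated as a processed pseudogene, and all 390 bases of the coding sequence of Ndufb4 (chr16:37647170-37654453) occur in it without a difference. The first 90 coding bases, from GENCODE M21 on mm10, are shown because a read from them fits both genes, and no capital marks a difference since there is none.
Ndufb4 and Ndufb4c: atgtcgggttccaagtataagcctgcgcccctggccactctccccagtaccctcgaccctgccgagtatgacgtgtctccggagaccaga
The split of reads between Ndufb4 and Ndufb4c is therefore uncertain. Ndufb4b had no annotated sequence and was not compared. In APP/E4 mice the sum of the 3 entries was 7.08, 13.0 and 18.8 CPM as lowest, median and highest, against 11.6, 16.9 and 22.9 CPM in APP/E3 mice. Ndufb4 alone had a log2 fold change of 0.15 ± 0.17 (SE) and Ndufb4c one of -0.47 ± 0.11 (SE) in APP/E4 vs APP/E3.

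Ndufs6, an accessory N module subunit, also has a processed copy, Ndufs6b (chr7:81161397-81161744), which differs from its coding sequence at 12 of 347 bases. The first 90 coding bases hold 7 of these, in capitals in both sequences, so many reads there can be told apart.
Ndufs6: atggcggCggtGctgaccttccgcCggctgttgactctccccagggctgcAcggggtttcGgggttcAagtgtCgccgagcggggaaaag
Ndufs6b: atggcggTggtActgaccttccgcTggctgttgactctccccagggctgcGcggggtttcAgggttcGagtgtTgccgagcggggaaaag
Ndufs6 averaged 30.9 ± 5.19 CPM in APP/E4 and 39.7 ± 4.04 CPM in APP/E3 mice (SD, n = 14 each) and fell by 0.36. Ndufs6b averaged 1.64 ± 0.550 CPM in APP/E4 and 2.25 ± 0.838 CPM in APP/E3 mice (SD, n = 14 each) and did not pass the test (adjusted p = 0.0511). Ndufa12, an N module subunit at 2.11 CPM, shares 11.8% of the 75-base windows of its longest transcript with Gm15920 and had a log2 fold change of 0.02 ± 0.16 (SE). Of the 39 members with an annotated transcript, 26 shared no such window with another annotated gene, and Ndufb4b could not be assessed.

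Promoter sequence was matched for 33 members in the RefSeq table (GRCm38.p6, 300 bases, from 250 before to 50 after the start), and 5 motifs were searched on both strands. The site of NRF1, a regulator of respiratory genes (GCGCA and GCGC with any 1 base between), was in 7 of 33 promoters (21.2%), against 4.78% of 27025. The 27025 are the promoters of all genes, not chosen by level in cortex as the members were. AANATGGCG, the YY1 site, was in 6 (18.2%, against 2.51%), and TGACGTCA, the CRE, in 3 (9.09%, against 1.88%). CCGGAAG, bound by ETS factors such as GABPA, was in 4 (12.1%, against 9.12%), and GGGCGG, the SP1 box, in 14 (42.4%, against 35.9%). Of the members called lower in APP/E4 vs APP/E3, 6 of 26 held the NRF1 letters, and of the others 1 of 7. The 100 bases before the start of the 2 called genes with the smallest p and an NRF1 match there are shown, with the match in capitals (Ndufs6 at chr13:73328483-73328582 and Ndufa8 at chr2:36049339-36049438, both from the minus strand). In both, the capitals are the site as read from the opposite strand (GCGC and TGCGC with any 1 base between). A match is a description of letters only.
Ndufs6 promoter: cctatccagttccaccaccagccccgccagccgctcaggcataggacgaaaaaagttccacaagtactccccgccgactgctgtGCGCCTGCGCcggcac
Ndufa8 promoter: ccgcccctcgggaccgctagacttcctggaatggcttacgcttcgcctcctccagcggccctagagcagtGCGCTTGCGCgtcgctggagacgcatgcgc

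The mitochondrial ND genes encode the core of the membrane arm. In APP/E4 vs APP/E3 mice 1 of 7 was higher and 0 lower, with a median log2 fold change of 0.04. Of all genes 10.9% were called higher in this comparison, near the share that 1 of 7 makes. ND5, a core proton-pumping subunit, averaged 4656 ± 1107 CPM in APP/E4 and 3849 ± 828 CPM in APP/E3 mice (SD, n = 14 each; 0.26 ± 0.11, SE, adjusted p = 0.0493). ND4L (0.14 ± 0.21, SE) and ND6 (0.05 ± 0.12, SE) did not pass the test. Ndufab1, the acyl carrier protein of the complex, averaged 4.14 ± 1.25 CPM in APP/E4 and 4.90 ± 1.13 CPM in APP/E3 mice (SD, n = 14 each, adjusted p = 0.162).

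Of 16 assembly factors, 4 fell and 1 rose, shares near or below the 22.7% of all genes called lower and the 10.9% called higher. Dmac1, which builds the distal membrane arm, had 8.88, 12.8 and 23.4 CPM in APP/E4 mice, against 17.3, 19.6 and 21.5 CPM in APP/E3 mice, and fell by 0.53 (adjusted p = 3.61e-06). Ndufaf7, a methyltransferase of the matrix, fell by 0.29 and Ndufaf3, an early assembly factor, by 0.27. Ndufaf1, of the membrane arm assembly complex, rose by 0.20 (adjusted p = 5.50e-04). Of 10 regulators of respiratory genes and mitochondrial DNA, only Tfb2m, a mitochondrial transcription factor, passed the test and fell by 0.28 (adjusted p = 8.03e-05); 22.7% of all genes were called lower. Esrra (-0.27 ± 0.12, SE) and Polrmt (-0.12 ± 0.07, SE) did not. In complexes II to V, 29 of 41 genes fell, against 22.7% of all genes, with a median of -0.37, against -0.04 over all genes. Cox8a and Cox6a1, of complex IV, fell by 0.94 and 0.84, and Uqcr10, of complex III, by 0.68. The ND genes and these lists are given from the main fit only, without the covariates or left-out libraries used for the members.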

How the data were processed

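The deposited table holds CPM values per gene, which the authors computed from counts made with featureCounts on the mm10 genome (their submitted processing notes also name edgeR). It has 14497 rows, of which 46 exact repeats were removed. Dividing each library by its smallest step gave integers throughout (tolerance 0.01 read), and these were taken as the read counts and the depth for count tests. Of the 88 columns, only 23 passed a stricter check for whole reads, and count tests served as alternatives only. The main test was limma 3.58.1 (trend and robust options) on log2(CPM + 0.5), for genes averaging 1 CPM or more, with 8 genotype means and sex, and Benjamini-Hochberg adjustment over 14086 genes. Fold changes are on that log2 scale. The alternatives are other pseudocounts, scalings and filters, edgeR 4.0.16, DESeq2 1.42.0, covariates, left-out libraries and each mouse in turn; the length slope covariate, and leaving out libraries with high striatal markers or the deepest library alone or with mouse E4132, were added after the data were seen. 1 member is counted but not reported here by name. Named genes were the 10 with the smallest p in APP/E4 vs APP/E3, the core subunits, up to 5 called higher, genes with copies or low levels, Ndufa4 and Ndufa4l2, and up to 3 per related list. Members and lists were chosen with earlier results of these data known. Fitting was tested on simulated data. Lengths and positions are from GENCODE M21. Each mouse is 1 replicate.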

Additional observations from a re-analysis of the deposited data

Results flagged for a closer look

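Among 100 sets of 6 to 8 mice, made from 25 measures in the 4 genotypes without the transgene, 5 held a mouse whose distance from the next exceeded Dixon's limit, where chance gives about 1 in 20. E3/Trem2ko mouse D3833 was lowest in 2 of them: Ndufs7 at 58.2 CPM (next 85.7 CPM) and Ndufv1 at 143 CPM (next 184 CPM). In the others the mouse was the highest of its group: Ndufc1 at 29.0 CPM in an E3 mouse (next 23.5 CPM), Ndufc2 at 70.9 CPM in E4 mouse E3357 (next 50.8 CPM) and Ndufb4c at 13.4 CPM in an E3 mouse (next 10.1 CPM). Leaving out E4 mouse E3357 raised the count of members called in E4 vs E3 to 17.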

How the results depend on the processing

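Counts of members called are given here per comparison, with the cause of a change not tested. Shares of all genes are given above for some of these settings only. A count without such a share cannot be set against all genes. For APP/E4 vs APP/E3, 30 members became 15 after the length and GC correction, 0 with the Rn45s covariate, 11 without libraries with keratin reads, 7 in females and 2 with the length slope covariate, and 27 to 32 when 1 mouse was left out. Ndufv1 turned to 0.14 (adjusted p = 0.0121, limma) after the length and GC correction. For APP/E4/Trem2ko vs APP/E4, 22 became 14 with TMM, 0 with only the compared genotypes, the Rn45s covariate or the length slope covariate, in females, or without libraries high in Ttr, 6 after the length and GC correction, 12 without keratin libraries, 11 without libraries high in Alb, 1 in males and 8 without those high in striatal markers. Leaving out 1 mouse gave 14 (APP/E4 mouse E3203) to 25. The fit without keratin libraries kept 4 of 14 APP/E4 and 6 of 16 APP/E4/Trem2ko mice, with E4127 and E4132 among the 6.

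For APP/E4/Trem2ko vs APP/E3/Trem2ko, 3 became 0 with only the compared genotypes, without libraries high in Ttr, in females and in males, 5 after the length and GC correction and 6 without keratin libraries. Mice E4127 and E4132 were among the 6 APP/E4/Trem2ko mice kept in the fit without keratin libraries. The direction turned with the Rn45s covariate (1 member, higher) and the length slope covariate (5, of which 4 higher). Leaving out 1 mouse gave 2 (APP/E3/Trem2ko mouse D3939) to 7 (APP/E4/Trem2ko mouse E3738). For E4 vs E3, 9 became 3 with edgeR, 4 with DESeq2, 3 with only the compared genotypes, 3 after the length and GC correction, 2 with the length slope covariate, and 0 with the Rn45s covariate, in each sex, and without libraries with keratin or high striatal markers. The fit without keratin libraries kept 2 of 6 E4 mice, and the fit of males alone had 2 E4 mice. Leaving out 1 mouse gave 2 (E4 mouse E3473) to 17 (E4 mouse E3357). For E4/Trem2ko vs E3/Trem2ko, 1 became 3 without mice E4127 and E4132, 2 after the length and GC correction and 0 with TMM, edgeR, DESeq2, the Rn45s covariate, in each sex, and without libraries high in Alb or striatal markers. The fit without keratin libraries kept 1 of 8 E4/Trem2ko mice, so its count is not given. Leaving out 1 mouse gave 0 (E3/Trem2ko mouse D3834) to 3 (E3/Trem2ko mouse D3833). For APOE by Trem2 in APP mice, 0 became 1 with DESeq2 and 6 without keratin libraries, and 0 to 6 when 1 mouse was left out (6 without APP/E4 mouse E3327). Here too the fit without keratin libraries had 4 APP/E4 and 6 APP/E4/Trem2ko mice, with E4127 and E4132 among the latter. In the other 11 contrasts no member was called when 1 mouse was left out.

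Over 96 single-gene fold changes of 24 named members, alternatives other than leaving out a mouse kept the call 1648 times. They moved an uncalled value a further 76 times, lost a call 162 times, gained one 29 times and reversed the direction 1 time. These counts do not measure how far a fold change with a kept call shifted in size. No paired analysis was possible because each mouse has its own number and no number recurs across genotypes. Low levels limit Ndufb4, Ndufa12, Ndufa4l2 and Ndufs6b.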
